A study of Homo sapiens with 12 samples.

Results

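Cells of the REC1 line were exposed to ibrutinib and SPX5551 together (the combination) and set against cells given DMSO, the solvent control, and the comparison was described across 14412 expressed genes. The 3 combination and the 3 DMSO libraries, 1 each at 4, 8 and 12 h, were chosen by the treatment and time that head each column, and made up 6 of 12 libraries. REC1 is an established human cell line grown out of mantle cell lymphoma, a B-cell cancer marked by high cyclin D1. The 4 treatments were the combination, ibrutinib alone, SPX5551 alone and DMSO, each sampled at the same 3 times with 1 library per treatment and time, all from poly(A)-selected RNA of the 1 line. The sources used here give no doses. Ibrutinib binds covalently to BTK, and SPX5551, written pol5551 in the headers, is known as an antagonist of CXCR4, whose inhibition the study's title names. The times stood in as the replicates (n = 3 per treatment), and nothing in the labels says that the cultures were separate experiments, so p-values measure the spread between these samples only. The question was which transcripts the paired agents changed, and how those changes compare with either agent alone.

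In B cells the antigen receptor signals through SYK, BTK and phospholipase C gamma to NF-kappaB, MAP kinases and calcium, and within hours this raises immediate early factors, cytokines, MYC and activation markers. CXCR4 is the receptor of the chemokine CXCL12, couples to inhibitory G proteins, and holds malignant B cells in marrow and lymph node niches. MYC binds the E-box sequence and drives the nucleolus, nucleotide synthesis and translation, and MXD proteins compete with it for the same partner and the same sites.

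The free-text description of every sample named the column of another treatment, whereas titles and treatment labels matched the headers. Had the descriptions been right, the 3 columns used here as the combination would be DMSO and those used as DMSO would be ibrutinib; of the 1379 genes that passed below, 1373 would have the opposite sign, and every direction given here rests on the headers. Libraries held 22951827, 28934030 and 24432822 counts at 4, 8 and 12 h for the combination and 19927190, 20147758 and 19497655 for DMSO, so the combination library was the deeper one at each time. Levels are given below as CPM, counts divided by the library total after TMM scaling (trimmed mean of M values) and brought to a common total, always in the order 4, 8 and 12 h; fold changes are on the log2 scale, with ± their standard error. Transcript length set 2 other libraries apart: at 8 h the ibrutinib library leaned to long transcripts (Spearman's correlation of a library's deviation with transcript length across genes 0.407, against -0.296 for the combination and -0.302 for DMSO), and at 12 h the SPX5551 library leaned to short ones (-0.381, against 0.237 and 0.366). Neither is a combination or a DMSO library, but both entered the estimate of the spread, and without them 2549 genes passed. B-cell markers were present: CD79A, a signalling chain of the B-cell receptor, stood at 709, 1207 and 1015 CPM with the combination, against 759.5, 1132 and 1010 CPM with DMSO, and CCND1, the cyclin D1 gene, at 1580, 1551 and 1274 CPM with the combination, against 1672, 1760 and 1466 CPM with DMSO. Markers of T cells summed to 6.66, 8.06 and 9.81 CPM with the combination, against 9.18, 8.52 and 8.45 CPM with DMSO, and those of myeloid cells to 1.45, 2.04 and 1.27 CPM with the combination, against 1.55, 1.99 and 1.16 CPM with DMSO. BTK was at 273, 265 and 342 CPM with the combination, against 315, 307 and 376 CPM with DMSO (log2 fold change -0.19, adjusted p = 0.178), and CXCR4 at 16.6, 32.5 and 24.7 CPM with the combination, against 17.9, 26.0 and 20.9 CPM with DMSO (0.16, adjusted p = 0.477). Of 3 T-cell markers tested TRAC fell in edgeR (-1.72, adjusted p = 0.014) and none in DESeq2. Markers of stromal, epithelial and erythroid cells summed to more, 42.9, 70.4 and 73.8 CPM with the combination, against 56.6, 77.8 and 75.6 CPM with DMSO. No marker of myeloid, stromal, epithelial or erythroid cells tested passed. CXCL12, the ligand of CXCR4, had no count in any library. TRAC lost the call on omitting at least 1 of the 6 libraries (adjusted p up to 0.0984).

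The combination changed 1379 genes, 9.57% of those tested (edgeR's quasi-likelihood F-test with time as a block, Benjamini-Hochberg adjusted p under 0.05). Of these, 600 rose (4.16%) and 779 fell (5.41%), and these shares are the background for every list below. Most changes were small: 289 of the genes that rose and 419 of those that fell moved by under 0.5 on the log2 scale, and 46 and 91 moved by over 1. The genes that rose had a median log2 difference of 0.51 at 4 h, 0.52 at 8 h and 0.49 at 12 h, and those that fell -0.47, -0.47 and -0.50. A test with time as a block favours genes whose change was alike at the 3 times, so these medians cannot show whether changes differ by time. The sign was the same at all 3 times for 596 of the 600 and for 775 of the 779; each of these genes was chosen on the same libraries. Over all tested genes, the 3 combination values lay wholly above the 3 DMSO values in 915 (6.35%) and wholly below them in 743 (5.16%), and 317 of the 600 and 396 of the 779 were among these. Many levels also moved with culture time, which the block takes out: with no time term 27 passed, 5 higher and 22 lower. With library size as the only scaling, 1140 rose and 493 fell, a share of 69.8% higher against 43.5%, so the balance of the directions depends on the scaling. On omitting the combination library of 4, 8 or 12 h the total was 853, 767 or 773. On omitting a DMSO library it was 586, 568 or 698, and on omitting a time point 278, 302 or 785, in the same order of times. Leaving out a time point takes all 4 of its libraries. Genes of a list named beyond its 4 members with the smallest p were picked after their values were seen.

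**Figure D1:**
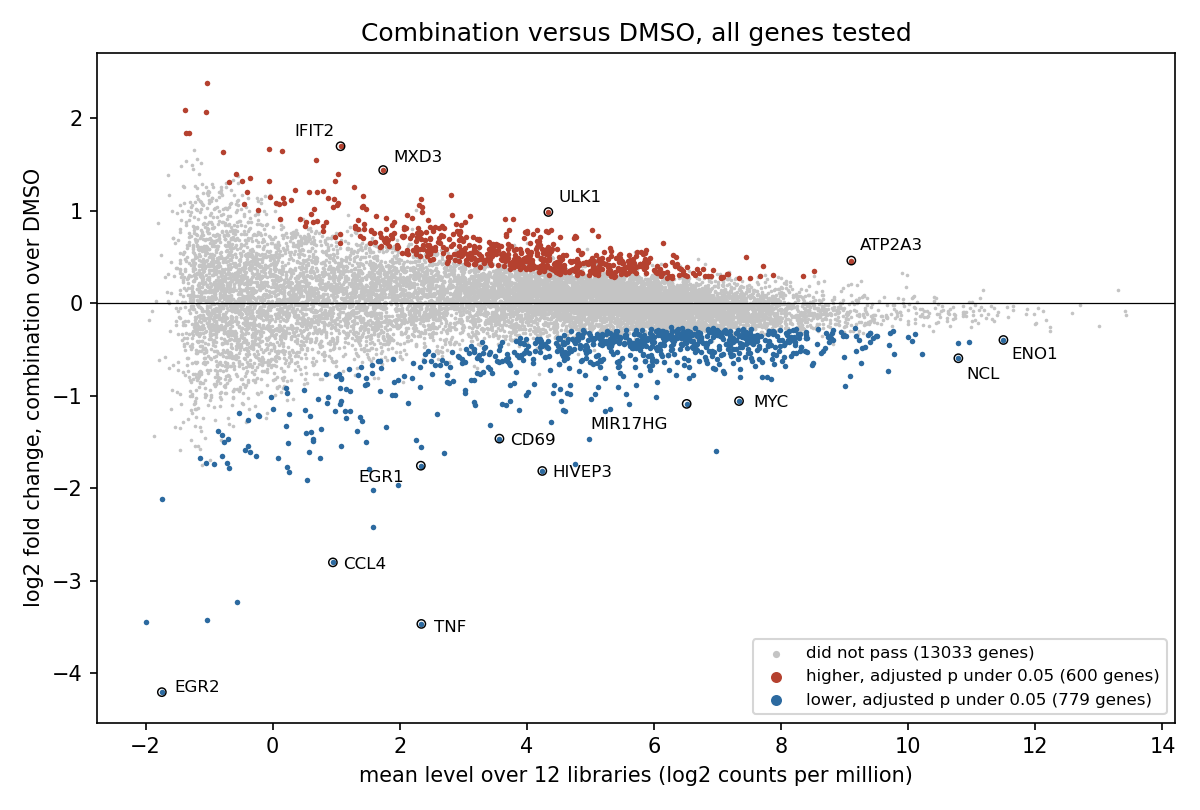
Each point is 1 of 14412 tested genes, with its mean level over the 12 libraries (log2 CPM) on the x axis and its log2 fold change, combination over DMSO, on the y axis; coloured points had an adjusted p under 0.05. The 779 genes that fell reach further down, to TNF and to EGR2, a gene of few counts, than the 600 that rose reach up, and many of them lie at high levels, such as NCL and ENO1.

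The genes that passed in each direction differed in level and base composition. With genes placed in 4 equal bins by mean level, 10.1% of the highest bin fell and 1.53% rose. In the second bin from below 3.83% fell and 8.24% rose. In bins by the GC content of the longest transcript, 8.44% of the top bin rose and 4.53% fell, against 2.88% and 4.16% of the bottom bin. The median GC content was 56.3% for genes that rose, 48.9% for genes that fell and 48.2% over all. Transcript length separated them less, with 2.21 to 5.45% rising and 3.19 to 6.42% falling over its bins. Across all genes the log2 fold change followed GC content with a Spearman correlation of 0.099 and length with 0.013, as a description over genes that share libraries. With length and GC trends removed within each library, 2216 genes passed, 839 higher and 1377 lower. No transcript of the mitochondrial genome passed of 24 tested.

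**Figure D2:**
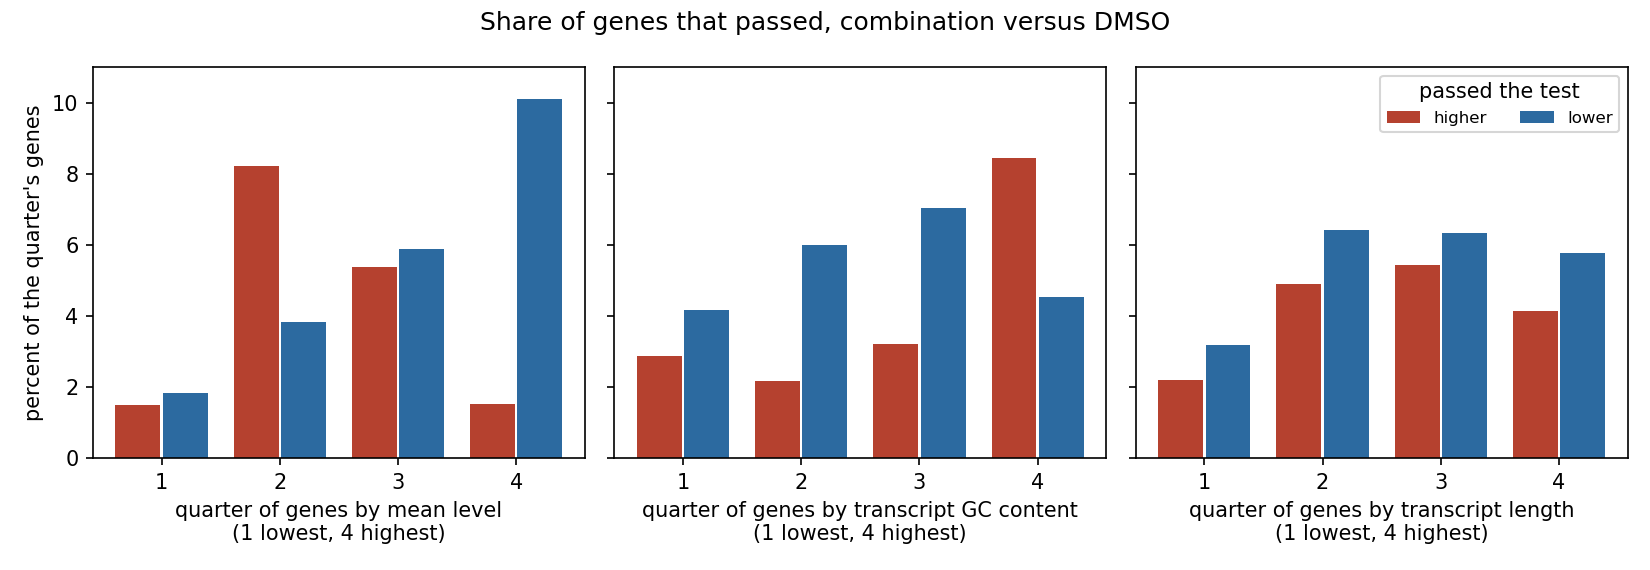
Bars give the percent of tested genes that rose (red) or fell (blue) with the combination relative to DMSO, in 4 equal bins of genes by mean level, by GC content of the longest transcript and by its length, each from low to high. Falling genes peak at 10.1% in the highest bin of level, and rising genes at 8.44% in the highest bin of GC content.

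Genes that B-cell receptor signals induce had the lowest median of the 55 lists described. Of 22 early response genes, 14 fell, none rose and 8 did not pass, with a median log2 fold change of -1.10 against 0.02 over all genes, and the median was -1.32, -0.53 and -1.42 at 4, 8 and 12 h. TNF, an inflammatory cytokine (ENSG00000232810.3, chr6:31575567-31578336, plus strand), stood at 0.438, 1.87 and 1.91 CPM with the combination, against 14.3, 10.9 and 21.7 CPM with DMSO, with no overlap. TNF fell by 3.46 ± 0.34 (adjusted p = 6.06e-05). DUSP2, a nuclear phosphatase that turns off MAP kinases, stood at 17.8, 21.7 and 15.6 CPM with the combination, against 64.4, 44.4 and 44.7 CPM with DMSO. DUSP2 fell by 1.46 ± 0.14 (adjusted p = 6.06e-05). CD69, a surface marker of recent activation, was at 4.78, 6.84 and 9.11 CPM with the combination, against 20.3, 13.7 and 22.9 CPM with DMSO. CD69 fell by 1.46 ± 0.17 (adjusted p = 1.29e-04). All 3 combination libraries lay below all 3 DMSO libraries for each of these genes. EGR1, an immediate early zinc finger factor, was nearly off at 4 h and less so later, with 0.877, 6.16 and 2.55 CPM with the combination, against 10.3, 8.12 and 10.3 CPM with DMSO. EGR1 fell by 1.76 ± 0.40 (adjusted p = 0.0123). CD83, a marker of activated B cells, declined steeply with time in both groups, at 128, 66.6 and 41.1 CPM with the combination, against 438, 125 and 182 CPM with DMSO. CD83 fell by 1.60 ± 0.20 (adjusted p = 2.21e-04). LTA, a cytokine next to TNF in the genome, was flat with the combination at 2.76, 2.69 and 2.62 CPM, against 6.73, 8.58 and 8.50 CPM with DMSO. LTA fell by 1.56 ± 0.18 (adjusted p = 1.11e-04). EGR2, another factor of that family, had 0, 0.0681 and 0 CPM with the combination, against 0.908, 0.204 and 0.654 CPM with DMSO, at too few counts for a fold change to be read. Other members that fell were EGR3 (-3.23), CCL4 (-2.80), CCL3 (-2.42), NFKBID (-1.15), IRF4 (-0.81) and NR4A1 (-0.65), and the chemokine pair shares sequence with near-identical copies, so the division of its reads is uncertain. With no time term 6 of the list fell. The call of EGR1 was lost on omitting the 4 or 12 h combination library, the 4 h DMSO library or the 4 h time point (adjusted p up to 0.074). EGR2 and NR4A1 also lost their calls on omitting at least 1 of the 6 libraries (adjusted p up to 0.167). NFKBID lost it on omitting a time point but not on omitting 1 library (adjusted p up to 0.0954).

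The NF-kappaB arm of the response went the same way. Of 17 NF-kappaB targets outside that list, 8 fell and none rose (median -0.60; -0.69, -0.27 and -0.90 at 4, 8 and 12 h). BIRC3, an inhibitor of apoptosis, stood at 37.8, 23.1 and 35.7 CPM with the combination, against 90.6, 40.3 and 79.4 CPM with DMSO. BIRC3 fell by 1.09 ± 0.12 (adjusted p = 7.69e-05). ICAM1, the ligand of lymphocyte integrins, was at 22.6, 27.3 and 26.8 CPM with the combination, against 76.9, 37.4 and 60.7 CPM with DMSO. ICAM1 fell by 1.15 ± 0.18 (adjusted p = 0.00133). CXCL10, a chemokine that interferon and NF-kappaB induce together, had 35.9, 13.3 and 4.91 CPM with the combination, against 116, 25.3 and 31.9 CPM with DMSO. CXCL10 fell by 1.74 ± 0.25 (adjusted p = 7.75e-04), although its 4 h combination library was above the 8 and 12 h DMSO libraries. The remaining 5 were TNFAIP2 (-0.88), PLEK (-0.80), LTB (-0.75), CD40 (-0.61) and CFLAR (-0.47), which include a further TNF family cytokine, the receptor CD40 and the caspase inhibitor CFLAR. Among 14 subunits and inhibitors, 4 fell: the feedback inhibitors TNFAIP3 (-0.93) and NFKBIA (-0.90) and the subunit genes NFKB1 (-0.34) and NFKB2 (-0.62). NFKBIA, which traps NF-kappaB in the cytoplasm and is itself a target, stood at 36.5, 36.8 and 23.6 CPM with the combination, against 90.6, 42.1 and 54.0 CPM with DMSO. The count of targets that fell was 3 on omitting the 4 h time point. That of subunits and inhibitors was 1 on omitting the 4 h time point and 2 on omitting the 4 h combination library, the 4 or 12 h DMSO library or the 12 h time point. It was 2 with library size only. CD180, which resembles a Toll-like receptor, was at 12.2, 14.9 and 20.3 CPM with the combination, against 30.4, 31.4 and 44.4 CPM with DMSO, with no overlap. CD180 fell by 1.17 ± 0.12 (adjusted p = 7.69e-05). LTB, CFLAR, NFKB1 and NFKB2 lost their calls on omitting at least 1 of the 6 libraries (adjusted p up to 0.201). ICAM1, PLEK, CD40 and NFKBIA lost theirs on omitting a time point but not on omitting 1 library (adjusted p up to 0.114).

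Of 25 B-cell receptor signalling components upstream 3 fell and none rose, where 5.41% of all genes fell. Their median was -0.15, 20 of the 25 fold changes were negative, and 9 genes had an unadjusted p under 0.05. The 3 were PTPN6, a phosphatase that restrains the receptor, FYN, a Src family kinase, and the adaptor DOK3. PTPN6 stood at 254, 300 and 295 CPM with the combination, against 382, 465 and 487 CPM with DMSO. PTPN6 fell by 0.65 ± 0.08 (adjusted p = 3.15e-04). FYN fell by 0.47 ± 0.09 (adjusted p = 0.00374) and DOK3 fell by 0.57 ± 0.13 (adjusted p = 0.0117). The other 22, among them the kinases and adaptors of the receptor, did not pass, and CD22, an inhibitory co-receptor, was at -0.35 (adjusted p = 0.051). None of 9 tested MAP kinase feedback genes passed, with PHLDA1 the nearest at -0.36, and of 11 AP-1 factors FOSB alone passed. FOSB, an AP-1 subunit, stood at 1.23, 2.96 and 1.43 CPM with the combination, against 1.07, 0.766 and 0.553 CPM with DMSO, and rose by 1.23 ± 0.36 (adjusted p = 0.0449), at low levels; limma-voom did not call it. With DESeq2 6 signalling components fell. The count of components that fell was 5 with RLE size factors and 8 with the length and GC trends removed. It was 9 with only the 6 combination and DMSO libraries, and 9 without the 2 libraries that stand apart. The call of FOSB was lost on omitting the 8 or 12 h combination library, any 1 DMSO library or any 1 time point (adjusted p up to 0.445). FYN and DOK3 lost their calls on omitting a time point but not on omitting 1 library (adjusted p up to 0.0848).

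**Figure D3:**
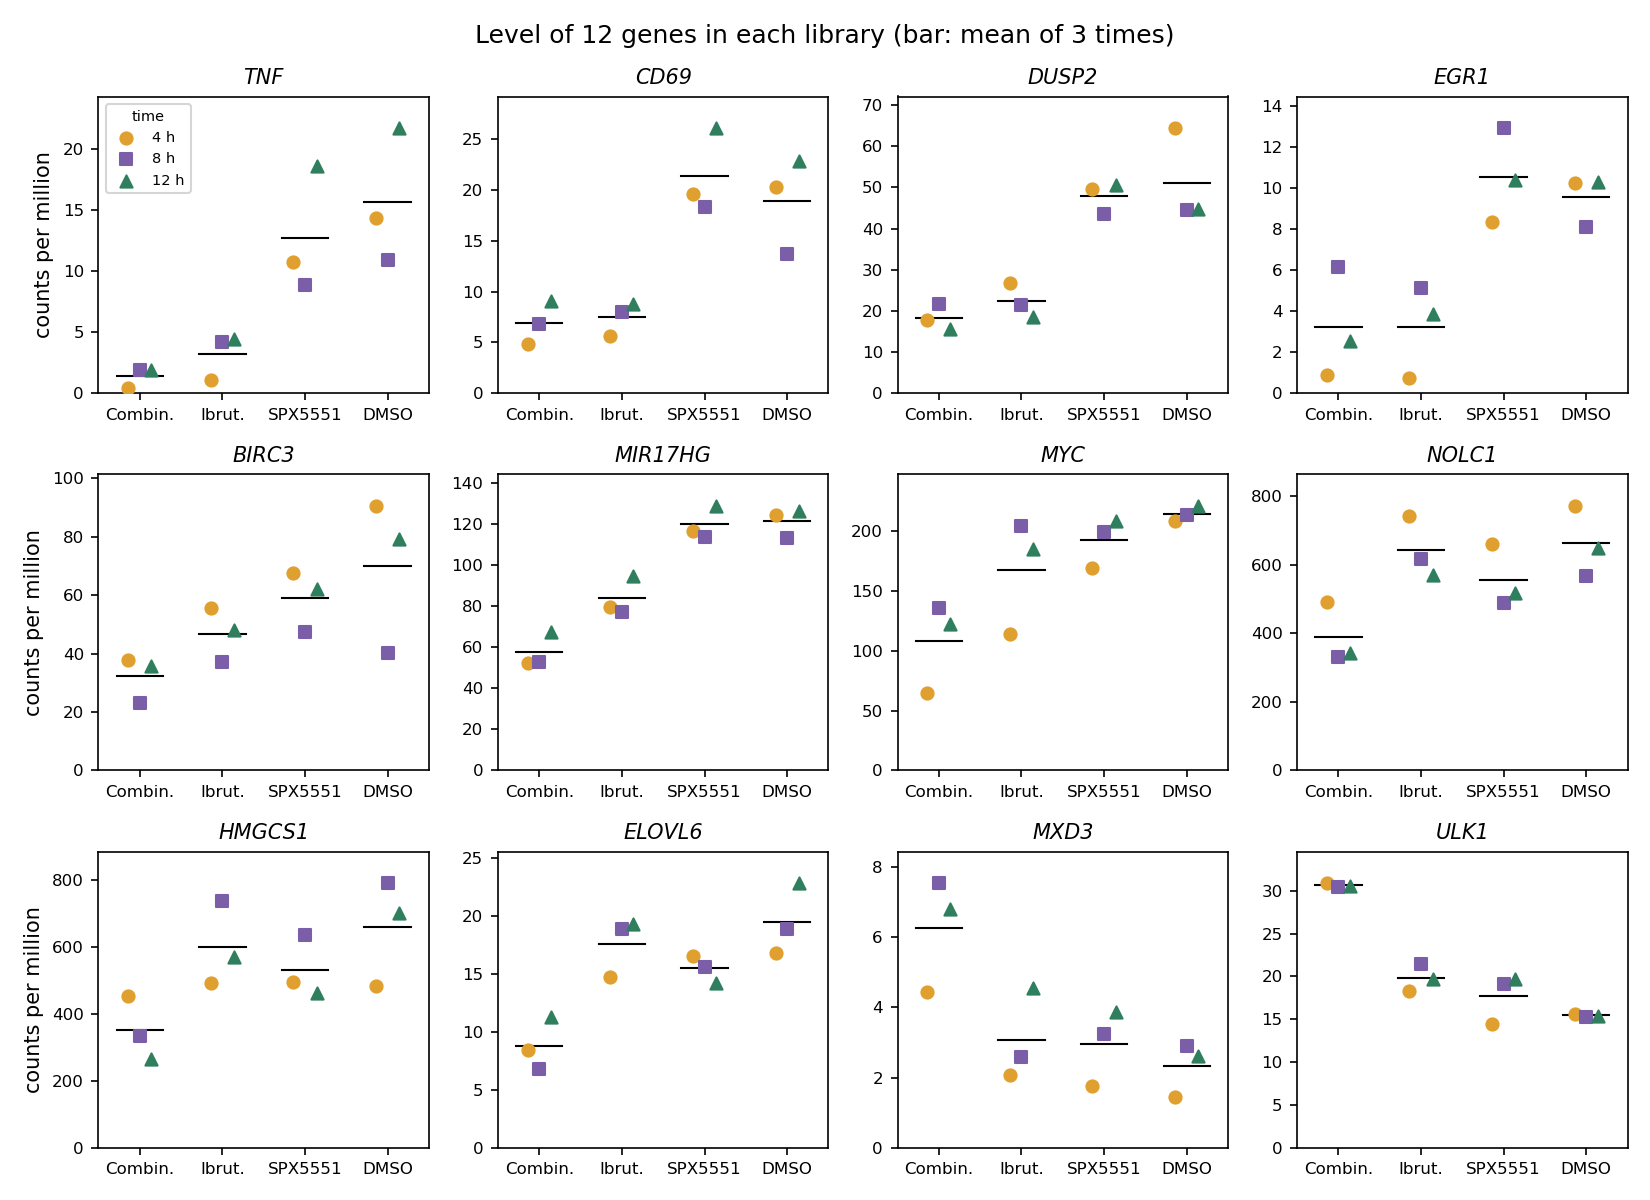
Level of 12 genes in each of the 12 libraries (CPM, counts per library scaled to a common total, y axes starting at 0), by treatment from left to right (combination, ibrutinib, SPX5551, DMSO) and by time (symbols), with the mean of the 3 times as a bar. TNF, CD69, DUSP2 and EGR1 are low in both the combination and the ibrutinib libraries, whereas NOLC1, ELOVL6, MXD3 and ULK1 depart from DMSO mainly in the combination libraries.

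The smallest adjusted p of all genes belonged to MIR17HG, the host transcript of the microRNA cluster that runs between miR-17 and miR-92a (ENSG00000215417.9, chr13:91347820-91354579, plus strand), which MYC is known to activate; it falls outside the naming rule and was picked after its values were seen. It stood at 52.4, 52.8 and 67.5 CPM with the combination, against 125, 113 and 127 CPM with DMSO, with no overlap. MIR17HG fell by 1.09 ± 0.09 (adjusted p = 1.71e-05). In the ibrutinib libraries it had 79.5, 77.2 and 95.0 CPM and in the SPX5551 libraries 117, 114 and 129 CPM, so the combination lay below ibrutinib alone as well (log2 difference -0.55 ± 0.09, adjusted p = 0.00481). These libraries count poly(A) transcripts, so the mature microRNAs were not measured. The 6 main mature products that this transcript carries are shown from RefSeq (GRCh38.p14, chr13, plus strand), with the seed, bases 2 to 8 from the 5′ end, in capitals:
hsa-miR-17-5p: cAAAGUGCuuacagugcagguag
hsa-miR-20a-5p: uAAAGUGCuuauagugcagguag
hsa-miR-18a-5p: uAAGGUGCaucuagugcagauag
hsa-miR-19a-3p: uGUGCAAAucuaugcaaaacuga
hsa-miR-19b-3p: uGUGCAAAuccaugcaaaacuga
hsa-miR-92a-3p: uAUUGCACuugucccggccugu

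By seed, miR-17-5p and miR-20a-5p form 1 group, miR-19a-3p and miR-19b-3p another, and miR-18a-5p and miR-92a-3p each have their own. PVT1, another long RNA tied to MYC, beside which it lies, was at 20.7, 19.0 and 14.7 CPM with the combination, against 34.1, 29.2 and 20.3 CPM with DMSO. PVT1 fell by 0.61 ± 0.11 (adjusted p = 0.00325); it too was picked after its values were seen. PVT1 lost the call on omitting a time point but not on omitting 1 library (adjusted p up to 0.0693).

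MYC fell, and MXD3 and MXD4 of its antagonists rose. MYC (ENSG00000136997.13, chr8:127735434-127741434, plus strand) stood at 64.9, 136 and 123 CPM with the combination, against 209, 213 and 221 CPM with DMSO, with no overlap. MYC fell by 1.06 ± 0.15 (adjusted p = 7.41e-04); its lowest value was the 4 h combination library. MXD3, which represses MYC sites, stood at 4.43, 7.52 and 6.79 CPM with the combination, against 1.44, 2.91 and 2.62 CPM with DMSO. MXD3 rose by 1.44 ± 0.20 (adjusted p = 5.83e-04). MXD4, of the same family, was at 6.40, 12.6 and 16.4 CPM with the combination, against 2.99, 5.36 and 7.40 CPM with DMSO, climbing with time in both groups. MXD4 rose by 1.17 ± 0.17 (adjusted p = 0.00101). The other 9 tested members of the network of 12 did not pass; the nearest, MLXIP, was at -0.30.

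Ribosome biogenesis showed the broadest decrease of the lists. Of 30 tested nucleolar and ribosome assembly genes 25 fell, none rose, and all 30 fold changes were negative, with a median of -0.52 that was -0.45, -0.56 and -0.59 at 4, 8 and 12 h. Summed over the list, levels were 10120, 7581 and 6473 CPM with the combination, against 13790, 10640 and 10100 CPM with DMSO; they declined with culture time in both groups. NOLC1, a nucleolar chaperone that links snoRNP assembly to polymerase I (ENSG00000166197.15, chr10:102152176-102163871, plus strand), was at 491, 332 and 341 CPM with the combination, against 771, 568 and 649 CPM with DMSO, with no overlap. NOLC1 fell by 0.78 ± 0.09 (adjusted p = 1.11e-04). NCL, nucleolin, among the most abundant of the list, stood at 1753, 1309 and 1090 CPM with the combination, against 2640, 1816 and 1796 CPM with DMSO. NCL fell by 0.59 ± 0.09 (adjusted p = 0.00123). DDX21, an RNA helicase of ribosomal RNA processing, had 963, 406 and 544 CPM with the combination, against 1356, 779 and 944 CPM with DMSO. DDX21 fell by 0.73 ± 0.11 (adjusted p = 0.00124). NPM1, nucleophosmin, had 2016, 1743 and 1263 CPM with the combination, against 2625, 2127 and 1902 CPM with DMSO. NPM1 fell by 0.41 ± 0.11 (adjusted p = 0.0312). In 7 of the 30 the groups did not overlap, against a background of 5.16% of all genes. In the rest they overlapped, as in NPM1, where the 4 h combination library lay above the 12 h DMSO library. Fold changes of further members were LYAR (-0.71), DKC1 (-0.65), WDR43 (-0.68), NOP56 (-0.58), GNL3 (-0.53), PES1 (-0.54) and RRP12 (-0.33), and FBL, the snoRNA methyltransferase, was at -0.25 and did not pass. The count was 15 on omitting the 4 h time point and 16 on omitting 8 h, and with no time term none of the list passed. The call of NPM1 was lost on omitting the 12 h combination library, the 4 or 8 h DMSO library or any 1 time point (adjusted p up to 0.151). RRP12 also lost the call on omitting at least 1 of the 6 libraries (adjusted p up to 0.195). PES1 lost it on omitting a time point but not on omitting 1 library (adjusted p up to 0.0582).

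The polymerases that transcribe ribosomal and transfer RNA followed in part, with 7 of 25 subunits and factors lower and 1 higher. POLR1G, a subunit of RNA polymerase I, stood at 46.1, 47.0 and 41.2 CPM with the combination, against 93.4, 70.5 and 59.8 CPM with DMSO, with no overlap. POLR1G fell by 0.72 ± 0.10 (adjusted p = 7.12e-04). Of the same enzyme POLR1B (-0.62), POLR1E (-0.51) and POLR1C (-0.58, shared with polymerase III) fell, as did the polymerase III subunit POLR3G (-0.45) and TAF1D (-0.32), a part of the polymerase I selectivity factor. BRF1, which recruits polymerase III to transfer RNA genes, rose by 0.43 ± 0.10 (adjusted p = 0.0117). The lower count was 3 on omitting the 4 h time point and 4 on omitting the 8 h DMSO library or the 8 h time point. It was 12 with the length and GC trends removed. The higher count was 0 on omitting the 4 or 8 h combination library, the 4 or 8 h DMSO library or the 4 or 8 h time point. It was 2 with library size only. Of 45 cytosolic ribosomal protein genes 0 passed in edgeR, DESeq2 or limma-voom and 1 had an unadjusted p under 0.05, and their median was -0.08. RPL7A, for example, was at 2778, 2980 and 2050 CPM with the combination, against 3216, 3065 and 2262 CPM with DMSO, and RPLP1 at 1236, 1341 and 939 CPM with the combination, against 1017, 1114 and 689.9 CPM with DMSO. POLR3G, TAF1D and BRF1 lost their calls on omitting at least 1 of the 6 libraries (adjusted p up to 0.0887). POLR1B and POLR1E lost theirs on omitting a time point but not on omitting 1 library (adjusted p up to 0.0803).

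Promoters of the ribosome biogenesis genes often held the E-box CACGTG, the palindrome bound by MYC and its partner, at the annotated start. Of 24 members with a promoter in RefSeq (250 bases before to 50 after the start), 10 held it (41.7%), against 10.3% of 10275 promoters of tested genes, 19.7% of 595 promoters of genes that fell and 5.92% of 490 promoters of genes that rose. The genes that fell also had higher levels (median 5.75 log2 CPM, against 3.94 for those that rose), and the part of level in these shares was not tested. In all 10 the single match lay within -16 to 35 bases of the start, and 9 of the 10 genes fell, FBL being the exception. Over the whole list 25 of 30 fell, a share close to that of the 10 with an E-box. Shown here, picked after their values were seen as the pair with the smallest p among the 10, are WDR43 and MYBBP1A, an assembly factor of the small ribosomal subunit and a nucleolar MYB-binding protein, with FJX1, DUSP2 and CD180 from the genes with the largest decreases, whose promoters hold a searched motif. Besides the E-box, AP-1 and kappaB GGGANTTCC, the motifs searched were kappaB GGGANTTTC, interferon response GAAANNGAA and CLEAR TCACGTGA. Forkhead GTAAACA, EGR GCGTGGGCG, CRE TGACGTCA and sterol response TCACCCCAC were searched too. The other genes of largest decrease with a promoter, TNF, HIVEP3, EGR1, LTA and VASH2, held no searched motif. Among the genes of largest increase, SCAND1, ABCA5 and HTR2C held an AP-1 match, and EVI5L, ULK1, PGM2L1, IPP and WIPI1 held no searched motif. Capitals mark the motifs (E-box CACGTG; kappaB GGGANTTCC; AP-1 TGANTCA; both strands searched), and a match is only a match of letters:
WDR43 (chr2:28894417-28894716, plus strand): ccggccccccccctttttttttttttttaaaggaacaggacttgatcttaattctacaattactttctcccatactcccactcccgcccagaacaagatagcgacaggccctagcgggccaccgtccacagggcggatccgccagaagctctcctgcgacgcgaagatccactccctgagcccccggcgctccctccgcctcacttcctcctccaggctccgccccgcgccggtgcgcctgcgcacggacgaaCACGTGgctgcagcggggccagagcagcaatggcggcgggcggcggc
MYBBP1A (chr17:4555335-4555634, minus strand): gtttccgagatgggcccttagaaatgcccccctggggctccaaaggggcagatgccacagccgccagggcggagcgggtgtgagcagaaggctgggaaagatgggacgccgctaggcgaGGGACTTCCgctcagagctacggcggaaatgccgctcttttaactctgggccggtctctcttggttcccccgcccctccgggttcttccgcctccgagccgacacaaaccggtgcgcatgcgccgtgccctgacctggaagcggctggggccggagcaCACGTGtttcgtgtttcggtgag
FJX1 (chr11:35618210-35618509, plus strand): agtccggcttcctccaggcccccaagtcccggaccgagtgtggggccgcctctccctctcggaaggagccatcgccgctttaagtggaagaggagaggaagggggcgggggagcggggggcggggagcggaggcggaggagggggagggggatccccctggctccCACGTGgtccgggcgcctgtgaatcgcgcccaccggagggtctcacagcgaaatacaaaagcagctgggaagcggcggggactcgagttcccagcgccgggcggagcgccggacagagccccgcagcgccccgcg
DUSP2 (chr2:96145391-96145690, minus strand): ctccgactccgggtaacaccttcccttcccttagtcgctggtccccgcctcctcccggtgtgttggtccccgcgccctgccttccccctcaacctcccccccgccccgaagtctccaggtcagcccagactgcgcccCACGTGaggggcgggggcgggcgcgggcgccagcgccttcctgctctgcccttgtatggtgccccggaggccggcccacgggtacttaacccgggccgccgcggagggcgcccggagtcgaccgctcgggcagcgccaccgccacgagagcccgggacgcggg
CD180 (chr5:67196750-67197049, minus strand): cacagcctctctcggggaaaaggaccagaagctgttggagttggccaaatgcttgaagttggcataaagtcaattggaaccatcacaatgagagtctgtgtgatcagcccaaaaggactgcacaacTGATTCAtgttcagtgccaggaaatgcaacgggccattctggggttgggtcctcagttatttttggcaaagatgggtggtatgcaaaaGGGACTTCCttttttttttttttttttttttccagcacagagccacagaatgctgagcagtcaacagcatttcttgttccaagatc

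WDR43 stood at 279, 153 and 186 CPM with the combination, against 423, 264 and 291 CPM with DMSO. WDR43 fell by 0.68 ± 0.09 (adjusted p = 5.95e-04), with its E-box 3 bases after the start. MYBBP1A was at 120.1, 97.2 and 105 CPM with the combination, against 164, 148 and 158 CPM with DMSO, with no overlap. MYBBP1A fell by 0.55 ± 0.09 (adjusted p = 0.00147); its E-box begins at 27 bases, and a kappaB match lies at -131. FJX1, of the Four-jointed family, had 2.89, 2.55 and 3.71 CPM with the combination, against 11.4, 8.58 and 8.15 CPM with DMSO. FJX1 fell by 1.61 ± 0.16 (adjusted p = 6.06e-05), with its E-box at -85. The E-box of DUSP2 begins at -113, and CD180 has a kappaB match at -36 and an AP-1 match at -124, where minus signs mark bases before the start. Over all promoters the kappaB GGGANTTCC was present in 2.47% and AP-1 in 4.17%. Both shares were similar among genes that fell (2.69% and 4.54%) and genes that rose (2.45% and 3.88%). The other kappaB form searched, GGGANTTTC, was present in 1.2% of all promoters, 1.51% of genes that fell and 1.22% of genes that rose. Of 16 early response promoters 0 held GGGANTTCC or AP-1 and 1 held GGGANTTTC. Of 16 promoters of the NF-kappaB target list, 3 held GGGANTTCC, 2 held GGGANTTTC and 1 held the AP-1 match. The interferon motif GAAANNGAA was present in 17 of 26 promoters of interferon-stimulated genes (65.4%), against 6.65% of all. That list was drawn up from genes known to respond to interferon, so its share describes the list and not the combination. Among all genes that rose the motif was present in 5.51% of promoters, and among those that fell in 5.88%.

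Supply lines of protein and nucleic acid synthesis were lower in parts. Of 27 translation factors 9 fell and none rose (median -0.26), among them EIF5B (-0.54), EIF5A (-0.45), EIF3B (-0.42), EIF3A (-0.37) and EIF4E (-0.31), which join subunits, aid elongation, build the initiation scaffold or bind the cap, and EEF2K (-0.52), a kinase that slows elongation. EIF5B stood at 295, 236 and 189 CPM with the combination, against 445, 334 and 272 CPM with DMSO. EIF5B fell by 0.54 ± 0.11 (adjusted p = 0.00616). All 22 aminoacyl-tRNA synthetase genes had a negative fold change, and 5 passed: AIMP2 (-0.41), IARS1 (-0.37), FARSA (-0.36), LARS1 (-0.33) and VARS1 (-0.29), the first being the scaffold of the multisynthetase complex. Of 23 purine and pyrimidine synthesis genes 9 fell and none rose, with a median of -0.27. UCK2, which phosphorylates uridine and cytidine for salvage, stood at 48.5, 42.7 and 41.0 CPM with the combination, against 83.2, 63.6 and 59.3 CPM with DMSO, with no overlap. UCK2 fell by 0.63 ± 0.09 (adjusted p = 7.12e-04). CAD, which carries the first steps of pyrimidine synthesis, was at 145, 153 and 166 CPM with the combination, against 161, 220.5 and 251 CPM with DMSO, so that it climbed with time with DMSO and hardly with the combination. CAD fell by 0.43 ± 0.12 (adjusted p = 0.0323). ATIC (-0.50) and PAICS (-0.29) of the purine route, IMPDH1 (-0.41) of guanine nucleotide synthesis and CTPS1 (-0.30) of cytidine nucleotide synthesis fell too. The count of translation factors was 0 on omitting the 4 h time point, 3 on omitting the 8 h time point, 4 on omitting the 4 or 8 h DMSO library or the 12 h time point and 5 on omitting the 12 h combination library or the 12 h DMSO library. It was 4 with library size only and 14 with the length and GC trends removed. That of synthetases was 0 on omitting the 8 h DMSO library or the 4 or 8 h time point, 1 on omitting the 12 h DMSO library or the 12 h time point and 2 on omitting the 8 or 12 h combination library. It was 1 with library size only, 8 with RLE size factors and 12 with the length and GC trends removed. That of nucleotide synthesis was 1 on omitting the 4 h time point, 3 on omitting the 12 h combination library, the 8 h DMSO library or the 8 h time point, 4 on omitting the 4 h DMSO library or the 12 h time point and 5 on omitting the 12 h DMSO library. It was 4 with library size only. The call of CAD was lost on omitting any 1 combination library, the 8 or 12 h DMSO library or any 1 time point (adjusted p up to 0.175). EIF3B, EIF3A, EIF4E, AIMP2, IARS1, FARSA, LARS1, VARS1, PAICS and CTPS1 also lost their calls on omitting at least 1 of the 6 libraries (adjusted p up to 0.17). EIF5B, EIF5A, EEF2K, ATIC and IMPDH1 lost theirs on omitting a time point but not on omitting 1 library (adjusted p up to 0.141). EIF4E lost the call with the length and GC trends removed (adjusted p = 0.0697).

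One-carbon and polyamine metabolism showed the same lean. MTHFD1L, the mitochondrial formate-producing enzyme of the folate cycle, stood at 54.0, 45.9 and 35.9 CPM with the combination, against 87.1, 68.8 and 60.9 CPM with DMSO, with no overlap. MTHFD1L fell by 0.68 ± 0.08 (adjusted p = 2.21e-04). It was among the 5 of 16 serine and one-carbon genes that fell, with MAT2A (-0.48), which makes the methyl donor S-adenosylmethionine, MTHFD1 (-0.41) and the amino acid transporters SLC1A5 (-0.35) and SLC7A5 (-0.36). ODC1, the rate-limiting enzyme of polyamine synthesis and a known MYC target, had 954, 699.7 and 475 CPM with the combination, against 1252, 1021 and 788 CPM with DMSO. ODC1 fell by 0.55 ± 0.11 (adjusted p = 0.00585). The spermidine and spermine synthases SRM (-0.43) and SMS (-0.45) and AMD1 (-0.37) fell with it, whereas SMOX, which breaks spermine down, rose (0.71), giving 4 lower and 1 higher of 10. The one-carbon count was 1 on omitting the 4 h time point, 2 on omitting the 8 or 12 h time point and 3 on omitting the 12 h combination library or the 12 h DMSO library. The polyamine count was 1 on omitting the 4 or 8 h time point and 2 on omitting the 12 h combination library, the 4 or 8 h DMSO library or the 12 h time point. Its higher count was 0 on omitting the 4 or 8 h combination library, any 1 DMSO library or any 1 time point. It was 2 with library size only. Of 30 nuclear pore and transport genes 9 fell and none rose, among them RCC1 (-0.39), XPO5 (-0.44), KPNB1 (-0.36), IPO5 (-0.33) and NUP160 (-0.41), which set the RAN gradient, export microRNA precursors, import cargo and form the pore scaffold. KPNB1, importin beta, stood at 574, 615 and 655 CPM with the combination, against 740.2, 760.4 and 858 CPM with DMSO, with no overlap. The nuclear pore count was 0 on omitting the 4 or 8 h time point, 1 on omitting the 12 h DMSO library, 2 on omitting the 8 h combination library or the 12 h time point, 3 on omitting the 4 or 8 h DMSO library, 4 on omitting the 12 h combination library and 5 on omitting the 4 h combination library. It was 3 with library size only. Of 27 genes of the mitochondrial ribosome and import 7 fell, such as the import factors GRPEL1 (-0.57), TOMM40 (-0.45) and TOMM20 (-0.43) and the chaperonin HSPD1 (-0.36). The mitochondrial count was 2 on omitting the 12 h combination library, the 8 h DMSO library or the 8 h time point, 3 on omitting the 4 h time point and 4 on omitting the 12 h time point. It was 16 with the length and GC trends removed. Of 30 nuclear-encoded respiratory chain genes 1 passed, NDUFS7, a complex I subunit, at 85.8, 92.7 and 65.4 CPM with the combination, against 55.2, 65.4 and 42.9 CPM with DMSO (0.58 ± 0.15, adjusted p = 0.024). The call of NDUFS7 was lost on omitting the 4 or 8 h combination library, any 1 DMSO library or the 4 or 8 h time point (adjusted p up to 0.146). MTHFD1, SLC1A5, SLC7A5, SRM, SMS, AMD1, SMOX, XPO5, KPNB1, IPO5, NUP160, TOMM40 and HSPD1 also lost their calls on omitting at least 1 of the 6 libraries (adjusted p up to 0.191). MAT2A, ODC1, RCC1 and TOMM20 lost theirs on omitting a time point but not on omitting 1 library (adjusted p up to 0.105).

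Genes of sterol synthesis and uptake were lower, mainly at 8 and 12 h by the values. Of 21 tested 10 fell and none rose (median -0.33), and the median was -0.03, -0.49 and -0.60 at 4, 8 and 12 h. Summed levels were 3183, 3119 and 2405 CPM with the combination, against 3367, 4626 and 4052 CPM with DMSO: with DMSO the sum was higher at 8 and 12 h than at 4 h, and with the combination it was not. HMGCS1, which makes the precursor of mevalonate, stood at 453, 334 and 265 CPM with the combination, against 484, 789.8 and 699.6 CPM with DMSO. HMGCS1 fell by 0.89 ± 0.18 (adjusted p = 0.00632). DHCR7, which makes cholesterol in the last step of synthesis, had 182, 159.9 and 101 CPM with the combination, against 186, 262 and 204 CPM with DMSO, nearly level at 4 h and apart later. INSIG1 (-0.65), SQLE (-0.62), MSMO1 (-0.60), NSDHL (-0.49), LSS (-0.42) and FDFT1 (-0.39) also fell. Fatty acid synthesis behaved alike, with 4 of 13 lower (median -0.31; -0.12, -0.37 and -0.38 at 4, 8 and 12 h). ELOVL6, which lengthens saturated fatty acids, had 8.42, 6.78 and 11.3 CPM with the combination, against 16.8, 18.9 and 22.9 CPM with DMSO, with no overlap. ELOVL6 fell by 1.15 ± 0.15 (adjusted p = 3.82e-04). SCD, the stearoyl-CoA desaturase and the most abundant of these transcripts, had 1183, 942 and 713 CPM with the combination, against 1382, 1373 and 1315 CPM with DMSO. SCD fell by 0.55 ± 0.12 (adjusted p = 0.00986), beside the desaturases FADS1 (-0.60) and FADS2 (-0.39). The sterol count was 1 on omitting the 8 h time point, 5 on omitting the 12 h DMSO library and 6 on omitting the 12 h combination library, the 8 h DMSO library or the 12 h time point. The fatty acid count was 2 on omitting the 8 or 12 h time point. It was 9 with the length and GC trends removed. DHCR7, NSDHL, LSS, FDFT1 and FADS2 lost their calls on omitting at least 1 of the 6 libraries (adjusted p up to 0.126). HMGCS1, INSIG1, MSMO1 and SCD lost theirs on omitting a time point but not on omitting 1 library (adjusted p up to 0.102).

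Whether an effect differed between 4 h and the later times was tested by the change of the combination-minus-DMSO difference, and 0 genes passed in edgeR (553 at an unadjusted p under 0.05, smallest adjusted p 0.507); DESeq2 called 3 and limma-voom 0. This test compares 1 pair of libraries with 2 others and takes its spread from the single-agent libraries too: with both libraries that stand apart left out 370 genes passed, with 1 residual degree of freedom, and on omitting the 12 h combination library 5 did. HMGCS1 had a change of 1.23 ± 0.21 (adjusted p = 0.507), and of 1.21 without those 2 libraries, the positive sign meaning a smaller decrease at 4 h. Of the 21 sterol genes 20 had a positive change, with a median of 0.52, and none passed. Without the 2 libraries 20 were positive too, with a median of 0.51. MYC went the other way, with a larger decrease at 4 h (-0.94 ± 0.20, adjusted p = 0.993), and -0.95 without the 2 libraries. In the fit without them the standard errors of HMGCS1 and MYC were nearly the same, 0.126 and 0.127. With 1 residual degree of freedom that fit hardly measures a gene's own spread, so its calls do not settle the timing. Among the genes with the smallest p, MT-ATP8, a subunit of the mitochondrial ATP synthase, was at 227, 255 and 268 CPM with the combination, against 531, 132 and 237 CPM with DMSO, a pattern carried by the 4 h DMSO library. SLC15A2, a peptide transporter, was at 10.3, 4.19 and 5.51 CPM with the combination, against 4.54, 4.65 and 6.84 CPM with DMSO, high in the 4 h combination library alone, and MCF2, an exchange factor of small GTPases, at 3.77, 1.74 and 2.06 CPM with the combination, against 0.748, 1.94 and 2.31 CPM with DMSO, low in the 4 h DMSO library alone. The other 3 that the naming rule gave were low transcripts or a ribosomal pseudogene whose reads may belong elsewhere (SAPCD1, OCLM and RPS27AP16).

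**Figure D4:**
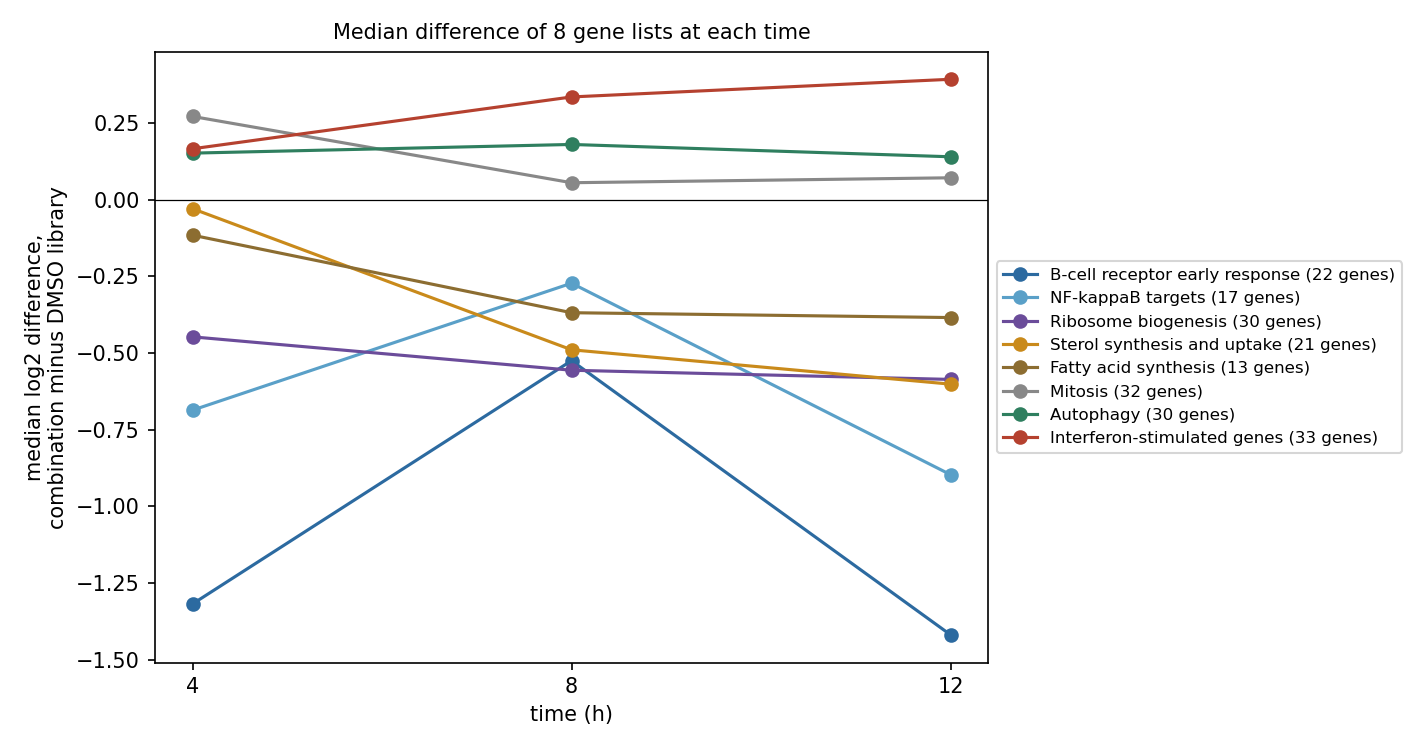
Median log2 difference, combination minus DMSO library, of 8 gene lists at 4, 8 and 12 h, with 1 library per group and time. The sterol median is near 0 at 4 h and -0.60 at 12 h, the ribosome biogenesis median is between -0.59 and -0.45, and the B-cell receptor and NF-kappaB medians are closest to 0 at 8 h.

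Of 26 glycolysis and hypoxia genes 7 fell and 3 rose. ENO1, enolase, had the largest decrease in CPM among genes that passed, at 3116, 2717 and 1718 CPM with the combination, against 3789, 3464 and 2551 CPM with DMSO. ENO1 fell by 0.40 ± 0.10 (adjusted p = 0.0274). LDHA, lactate dehydrogenase, had 2021, 1428 and 1075 CPM with the combination, against 2596, 1864 and 1571 CPM with DMSO. LDHA fell by 0.43 ± 0.10 (adjusted p = 0.0144). HK2 (-0.59), which traps glucose, PFKP (-0.35), PFKM (-0.35) and GPI (-0.32) of upper glycolysis and the hypoxia-induced angiogenic factor VEGFA (-0.63) fell as well. The genes that rose were the liver-type phosphofructokinase PFKL (0.29), the lactate exporter SLC16A3 (0.48) and NDRG1 (1.05), a hypoxia-induced gene that MYC represses, at 2.81, 4.90 and 4.99 CPM with the combination, against 2.46, 1.48 and 2.21 CPM with DMSO. The lower count was 1 on omitting the 4 h time point, 2 on omitting the 8 h time point, 3 on omitting the 12 h DMSO library and 4 on omitting the 4 or 12 h combination library, the 4 or 8 h DMSO library or the 12 h time point. It was 4 with library size only. The higher count was 0 on omitting the 8 or 12 h combination library, the 8 or 12 h DMSO library or the 8 or 12 h time point and 1 on omitting the 4 h combination library, the 4 h DMSO library or the 4 h time point. The call of ENO1 was lost on omitting the 12 h combination library, any 1 DMSO library or any 1 time point (adjusted p up to 0.13). The call of LDHA was lost on omitting the 4 h DMSO library or the 4 or 8 h time point (adjusted p up to 0.0936). PFKP, PFKM, GPI, PFKL, SLC16A3 and NDRG1 also lost their calls on omitting at least 1 of the 6 libraries (adjusted p up to 0.166). HK2 lost it on omitting a time point but not on omitting 1 library (adjusted p up to 0.096). PFKL lost the call with the length and GC trends removed (adjusted p = 0.29).

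Among 24 transcription factors of the B lineage 7 fell and 2 rose. IRF4, which drives activated B cells and plasma cells, had 93.8, 58.6 and 61.7 CPM with the combination, against 185, 86.5 and 113 CPM with DMSO. IRF4 fell by 0.81 ± 0.10 (adjusted p = 1.73e-04). IKZF3, the lymphoid factor Aiolos, had 50.9, 62.4 and 74.2 CPM with the combination, against 93.9, 97.2 and 97.9 CPM with DMSO, with no overlap. IKZF3 fell by 0.63 ± 0.10 (adjusted p = 0.00189), and its relative IKZF1 fell by 0.51 ± 0.14 (adjusted p = 0.0334). MEF2C (-0.59), EBF1 (-0.42), BCL11A (-0.36) and BCL6 (-0.57), factors of B-cell development and of the germinal centre, fell too. The 2 that rose were ID3 and ID2, which block E-protein factors: ID3 had 12.8, 44.8 and 46.6 CPM with the combination, against 11.9, 25.5 and 18.9 CPM with DMSO (0.79 ± 0.18, adjusted p = 0.0113), level at 4 h and apart later. PAX5, the factor of B-cell identity, was at -0.44 and did not pass, nor did any of 8 tested B-cell markers. The lower count was 1 on omitting the 4 h time point, 2 on omitting the 8 h time point, 3 on omitting the 8 h DMSO library and 4 on omitting the 4 or 8 h combination library or the 4 or 12 h DMSO library. It was 4 with library size only. The higher count was 0 on omitting the 8 or 12 h combination library, the 8 or 12 h DMSO library or the 8 or 12 h time point. The call of IKZF1 was lost on omitting the 4 or 8 h combination library, any 1 DMSO library or the 4 or 8 h time point (adjusted p up to 0.175). The call of ID3 was lost on omitting the 8 or 12 h combination library, the 8 or 12 h DMSO library or the 8 or 12 h time point (adjusted p up to 0.123). In the Notch pathway DTX4 (-0.80), a ubiquitin ligase, and CR2 (-0.75), the complement receptor and a Notch-induced gene of B cells, fell, and HES4 (0.65) and the ligand JAG2 (0.55) rose. DTX4 stood at 176, 110 and 80.1 CPM with the combination, against 304, 183 and 146 CPM with DMSO. DTX4 fell by 0.80 ± 0.10 (adjusted p = 2.04e-04). With the length and GC trends removed the adjusted p of HES4 and JAG2 was 0.461 and 0.127. The call of HES4 was lost on omitting the 4 or 8 h combination library, any 1 DMSO library or the 4 or 8 h time point (adjusted p up to 0.256). The call of JAG2 was lost on omitting any 1 combination library, any 1 DMSO library or any 1 time point (adjusted p up to 0.337). EBF1, BCL11A, BCL6 and ID2 also lost their calls on omitting at least 1 of the 6 libraries (adjusted p up to 0.215). IKZF3 and MEF2C lost theirs on omitting a time point but not on omitting 1 library (adjusted p up to 0.0964).

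Homing receptors and adhesion molecules changed gene by gene. GPR183, an oxysterol receptor that places B cells at follicle edges, stood at 12.3, 14.5 and 20.3 CPM with the combination, against 26.4, 33.1 and 32.5 CPM with DMSO, with no overlap. GPR183 fell by 0.98 ± 0.13 (adjusted p = 2.81e-04). In the ibrutinib libraries it had 25.2, 30.9 and 42.4 CPM, in the SPX5551 libraries 27.2, 29.6 and 29.6 CPM. CXCR3, the receptor of CXCL10, had 0.570, 0.715 and 0.375 CPM with the combination, against 3.53, 2.04 and 1.06 CPM with DMSO. CXCR3 fell by 1.91 ± 0.31 (adjusted p = 0.00163), and CXCR5, which guides B cells into follicles, fell by 0.36 ± 0.09 (adjusted p = 0.0246). RGS16 (-1.51), which shortens G protein signals, fell, while RGS19 (0.37), the inhibitory G protein subunit GNAI2 (0.29) and the receptor kinase GRK2 (0.28) rose, giving 4 lower and 3 higher of 22. Of 20 integrins and adhesion molecules 5 fell and 1 rose. CD44, a hyaluronan receptor, had 179, 139.5 and 149 CPM with the combination, against 384, 209 and 242 CPM with DMSO, with no overlap. CD44 fell by 0.80 ± 0.10 (adjusted p = 3.07e-04). ITGA4 (-0.67), the alpha chain of the VLA integrin, ITGB2 (-0.40) and CD24 (-0.49) were among those that fell, and SELPLG (1.04), a selectin ligand at low level, rose. In the homing list the lower count was 2 on omitting the 4 or 12 h combination library, the 12 h DMSO library or the 4 or 12 h time point. The higher count was 0 on omitting the 4 or 8 h combination library, any 1 DMSO library or the 4 or 8 h time point and 1 on omitting the 12 h combination library or the 12 h time point. In the adhesion list the lower count was 2 on omitting the 12 h DMSO library or the 4 or 8 h time point and 3 on omitting the 8 h combination library or the 12 h time point. The higher count there was 0 on omitting the 8 or 12 h combination library, the 4 or 8 h DMSO library or the 8 h time point. It was 2 with library size only. The call of CXCR5 was lost on omitting the 4 or 12 h combination library, any 1 DMSO library or any 1 time point (adjusted p up to 0.252). RGS16, RGS19, GNAI2, GRK2, ITGA4, ITGB2 and SELPLG also lost their calls on omitting at least 1 of the 6 libraries (adjusted p up to 0.216). CD24 lost it on omitting a time point but not on omitting 1 library (adjusted p up to 0.107). GRK2 lost the call with the length and GC trends removed (adjusted p = 0.0756).

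Among genes of autophagy, ULK1 is the kinase that starts the process (ENSG00000177169.8, chr12:131894651-131923167, plus strand). ULK1 stood at 30.9, 30.4 and 30.6 CPM with the combination, against 15.7, 15.3 and 15.3 CPM with DMSO, flat over time in both groups and with no overlap. ULK1 rose by 0.99 ± 0.11 (adjusted p = 9.76e-05). In all 6 of 30 autophagy genes rose and none fell, with a median of 0.15. WIPI1, which binds the forming membrane, had 7.76, 7.73 and 10.6 CPM with the combination, against 3.74, 4.39 and 6.59 CPM with DMSO. WIPI1 rose by 0.84 ± 0.13 (adjusted p = 0.00151); ATG16L2 (0.56), ATG2A (0.65), the cargo receptor NBR1 (0.49) and GABARAPL2 (0.35) rose as well. The autophagy count was 3 on omitting the 4 or 8 h time point. It was 10 with library size only. Of 29 lysosome genes 2 rose, the protease CTSD (0.48) and the membrane protein LAMP2 (0.38). The lysosome count was 0 on omitting the 4 or 8 h time point and 1 on omitting the 12 h combination library, any 1 DMSO library or the 12 h time point. It was 6 with library size only or the length and GC trends removed. FOXO targets and quiescence genes held 5 higher and 2 lower of 18. YPEL3, a growth suppressor, had 4.21, 10.3 and 9.94 CPM with the combination, against 2.03, 4.54 and 5.18 CPM with DMSO. YPEL3 rose by 1.06 ± 0.18 (adjusted p = 0.00241); FOXO4 (0.69), YPEL5 (0.46), TXNIP (0.42) and TOB1 (0.41) rose too, and BCL6 was among the 2 that fell. SESN3 and SESN1, sestrins that restrain mTOR complex 1, were the 2 of 21 PI3K, AKT and mTOR regulators that passed: SESN3 had 29.2, 33.0 and 46.9 CPM with the combination, against 14.4, 24.2 and 27.7 CPM with DMSO. SESN3 rose by 0.73 ± 0.14 (adjusted p = 0.0048). The FOXO list's higher count was 0 on omitting the 8 h time point, 1 on omitting the 12 h combination library or the 8 h DMSO library and 3 on omitting the 8 h combination library, the 12 h DMSO library or the 4 or 12 h time point. Its lower count was 0 on omitting the 4 or 12 h DMSO library or the 4 or 8 h time point and 1 on omitting the 4 or 8 h combination library, the 8 h DMSO library or the 12 h time point. It was 1 with library size only. The call of SESN3 was lost on omitting the 4 h DMSO library or the 4 h time point (adjusted p up to 0.0637). NBR1, GABARAPL2, LAMP2, FOXO4, YPEL5, TXNIP, TOB1 and SESN1 also lost their calls on omitting at least 1 of the 6 libraries (adjusted p up to 0.262). ATG2A, CTSD and YPEL3 lost theirs on omitting a time point but not on omitting 1 library (adjusted p up to 0.0744).

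Several death genes rose at modest levels: 5 of 17 death receptor and caspase genes passed, all higher. CASP10, an initiator caspase, had 6.36, 15.0 and 17.9 CPM with the combination, against 3.37, 7.05 and 9.96 CPM with DMSO. CASP10 rose by 0.95 ± 0.16 (adjusted p = 0.00216). APAF1, the core of the apoptosome, had 25.9, 28.6 and 37.0 CPM with the combination, against 12.5, 19.9 and 24.2 CPM with DMSO, with no overlap. APAF1 rose by 0.72 ± 0.14 (adjusted p = 0.00503). RIPK3 (0.74), CASP9 (0.49) and RIPK1 (0.38) were the others. The count was 1 on omitting the 4 h DMSO library or the 4 h time point, 2 on omitting the 8 h combination library or the 8 h time point and 3 on omitting the 12 h combination library or the 8 or 12 h DMSO library. In the BCL2 family of 14, BAD, a pro-death member, rose by 0.57 ± 0.15 (adjusted p = 0.0275) and BCL2L1, the gene of the survival protein BCL-XL, fell by 0.42 ± 0.12 (adjusted p = 0.044); BCL2 was at -0.41 and did not pass. Of 33 interferon-stimulated genes 6 rose and none fell (median 0.38; 0.17, 0.33 and 0.39 at 4, 8 and 12 h). IFIT2, which restrains viral translation, had 2.10, 3.10 and 5.03 CPM with the combination, against 0.695, 1.23 and 1.16 CPM with DMSO. IFIT2 rose by 1.70 ± 0.26 (adjusted p = 0.00123). STAT2, a signal carrier of type I interferon, had 57.7, 70.5 and 84.2 CPM with the combination, against 39.5, 51.1 and 61.8 CPM with DMSO. STAT2 rose by 0.48 ± 0.09 (adjusted p = 0.0042); SAMD9L (0.91), HERC5 (1.13), IRF7 (0.53) and RIGI (0.47) rose as well, though CXCL10, also interferon-induced, fell. The interferon count was 1 on omitting the 8 h time point, 2 on omitting the 4 h DMSO library or the 4 h time point and 3 on omitting the 12 h combination library, the 12 h DMSO library or the 12 h time point. The call of APAF1 was lost on omitting the 4 h DMSO library or the 4 h time point (adjusted p up to 0.085). The call of BAD was lost on omitting the 4 or 8 h combination library, any 1 DMSO library or the 4 or 8 h time point (adjusted p up to 0.195). The call of BCL2L1 was lost on omitting the 4 or 12 h combination library, the 4 or 12 h DMSO library or the 4 or 12 h time point (adjusted p up to 0.448). Genes that rose were richer in GC over the whole table and the combination libraries were deeper, as given above; with the trends removed 7 interferon-stimulated genes and 6 death genes rose, and the part of depth was not tested. RIPK3, CASP9, RIPK1, SAMD9L, HERC5, IRF7 and RIGI also lost their calls on omitting at least 1 of the 6 libraries (adjusted p up to 0.227). STAT2 lost it on omitting a time point but not on omitting 1 library (adjusted p up to 0.0746). IRF7 lost the call with the length and GC trends removed (adjusted p = 0.134).

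In the cell cycle lists every call was an increase, where 4.16% of all genes rose. An unadjusted p under 0.05 was reached by 9 of 18 G1, 12 of 32 mitosis and 4 of 34 DNA replication genes. Of 18 G1 control genes 3 rose, CCNE2 (0.71), CCND3 (0.45) and the CDK inhibitor CDKN2D (0.56), and CCND1 was not among those that passed. CCNE2, cyclin E2, had 21.4, 17.4 and 25.1 CPM with the combination, against 12.4, 10.9 and 15.9 CPM with DMSO, with no overlap. CCNE2 rose by 0.71 ± 0.11 (adjusted p = 0.00111). In the mitosis list 3 of 32 rose (NUSAP1, NDC80 and CCNB2, 0.31, 0.29 and 0.33), 31 of 32 fold changes were positive, and the median was 0.27, 0.05 and 0.07 at 4, 8 and 12 h. Of 34 DNA replication genes POLD1 alone passed (0.33). The mitosis count was 0 on omitting the 4 or 12 h combination library, any 1 DMSO library or any 1 time point. It was 1 with RLE size factors, 6 with library size only and 8 with the length and GC trends removed. The G1 count was 1 on omitting the 8 or 12 h combination library, the 4 or 12 h DMSO library or the 4 or 8 h time point. It was 6 with the length and GC trends removed and 7 with library size only. Without the 2 libraries that stand apart 5 G1 genes rose and 2 fell, and 8 mitosis genes rose. No gene passed in edgeR among 34 proteasome genes, 31 splicing factors, 9 MAP kinase feedback genes, 8 B-cell markers or 7 drug targets and ligands tested; the unadjusted p was under 0.05 in 1, 10, 1, 3 and 2 of them in that order, and DESeq2 called 0, 4, 0, 3 and 0 and limma-voom 0, 1, 0, 1 and 0. MHC class II (5 genes) and class I (14) held no call in edgeR, with 1 and 3 at an unadjusted p under 0.05 and 1 class I gene called by DESeq2. Calls in other lists were few. Those that fell were the clock repressor NR1D1 (-1.50), the chaperone FKBP4 (-0.64) with CCT5 (-0.32), the endoplasmic reticulum chaperones HSPA5 (-0.35) and HSP90B1 (-0.30) with HERPUD1 (-0.40) and XBP1 (-0.35), the p53 targets PLK3 (-0.76) and AEN (-0.45), the TNF receptor TNFRSF1B (-0.66) and the adaptor TRAF3 (-0.31), the plasma cell genes FKBP11 (-0.54) and DERL3 (-0.63), the phosphodiesterase PDE4A (-0.65) and the histone deacetylase HDAC9 (-0.55). Those that rose were IRAK4 (0.35), a kinase of Toll-like receptor signals, PRKACA (0.39), a catalytic subunit of protein kinase A, and SESN1 (0.49), which is also a p53 target. Of 18 p53 targets 12 had a positive fold change, with a median of 0.18. With library size only, 0 of 21 genes of the list that holds HSPA5, HSP90B1, HERPUD1 and XBP1 (responses to misfolded proteins and to amino acid shortage) passed, against 4 with TMM scaling. CCND3, CDKN2D, NUSAP1, NDC80, CCNB2, POLD1, CCT5, HSPA5, HSP90B1, HERPUD1, XBP1, TRAF3, FKBP11, DERL3, PDE4A, HDAC9, IRAK4 and PRKACA lost their calls on omitting at least 1 of the 6 libraries (adjusted p up to 0.263). PLK3 and AEN lost theirs on omitting a time point but not on omitting 1 library (adjusted p up to 0.0683). POLD1 lost the call with the length and GC trends removed (adjusted p = 0.237).

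**Figure D5:**
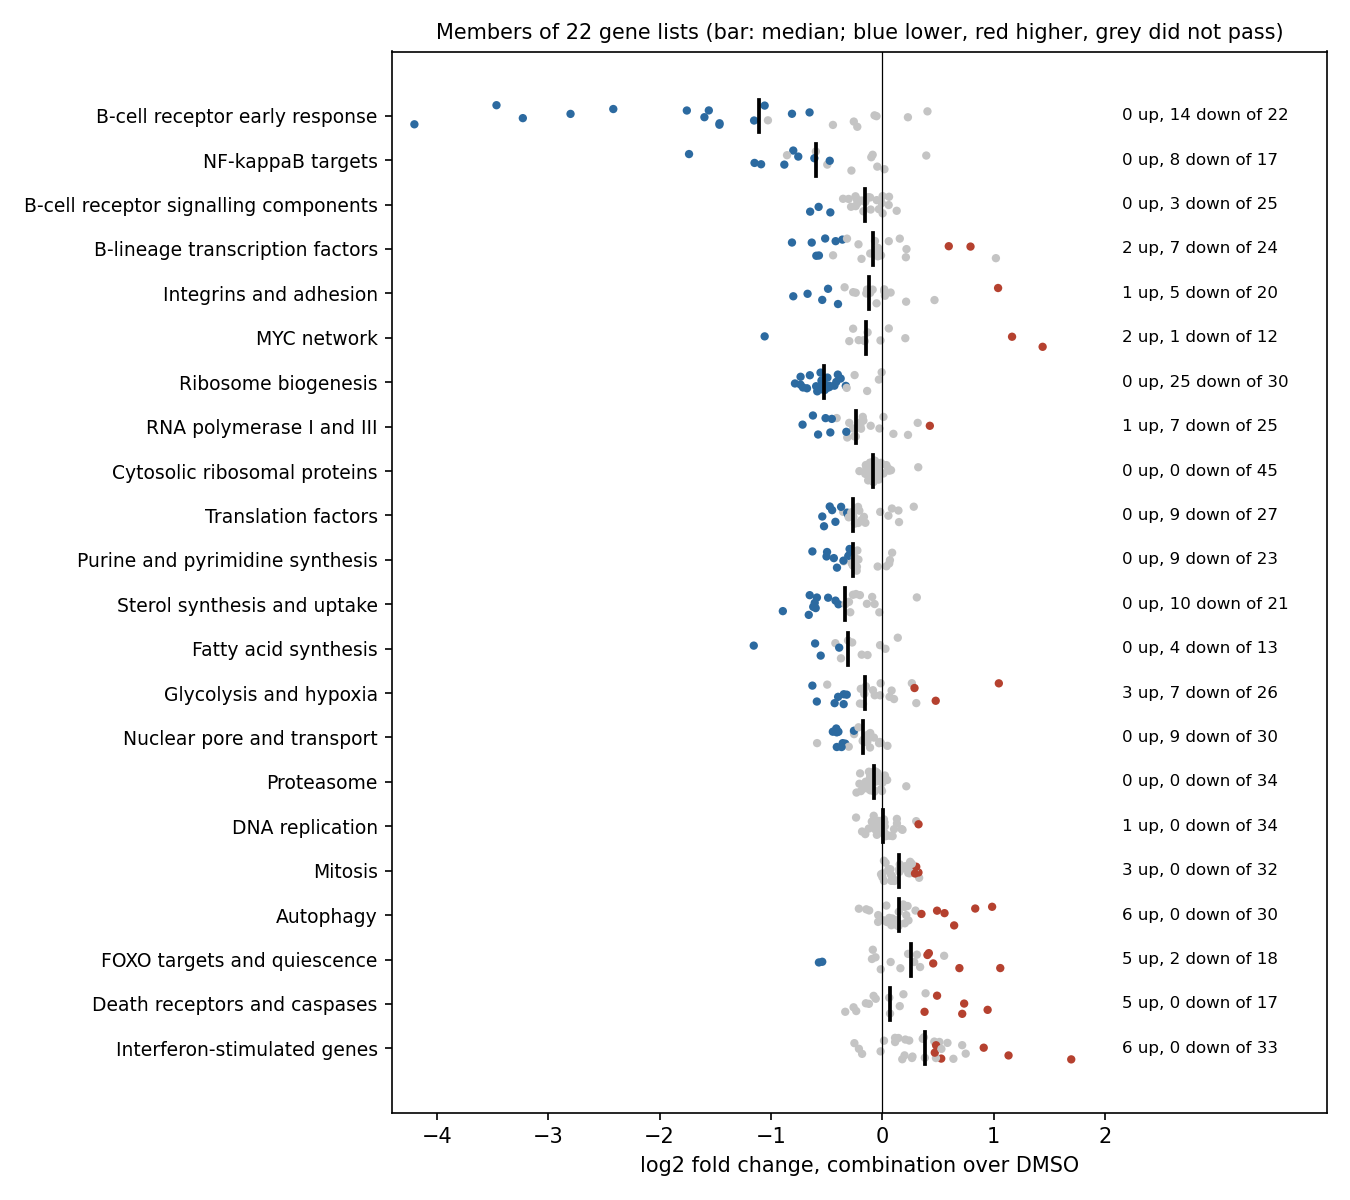
Log2 fold change, combination over DMSO (x axis), of each tested member of 22 gene lists (rows); blue points fell, red points rose, grey points did not pass, the bar is the median and the counts stand at the right. The early response list reaches furthest down, ribosome biogenesis forms a tight cluster at a median of -0.52 with 25 of 30 down, and ribosomal proteins and proteasome genes sit close to 0.

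By the naming rule for large folds without overlap, the 12 genes that rose most included EVI5L (1.04), SCAND1 (0.99), ULK1 (0.99), ABCA5 (0.95), ARHGAP33 (0.91), PGM2L1 (0.91), ZC2HC1A (0.88), ENSG00000243679 (0.86), IPP (0.85), WIPI1 (0.84) and HTR2C (0.83). They have little in common by name: a Rab GTPase-activating protein, a lipid transporter of the lysosome (ABCA5), a regulator of small GTPases (ARHGAP33), a pair of autophagy proteins and a serotonin receptor among them. ARHGAP33 had 18.9, 20.1 and 24.6 CPM with the combination, against 8.76, 11.9 and 13.4 CPM with DMSO. ARHGAP33 rose by 0.91 ± 0.11 (adjusted p = 2.04e-04). The 12 that fell most were TNF (-3.46), HIVEP3 (-1.81), EGR1 (-1.76), FJX1 (-1.61), LTA (-1.56), CD69 (-1.46), DUSP2 (-1.46), CSF1 (-1.32), VASH2 (-1.29), GALNT6 (-1.20), LILRA4 (-1.17) and CD180 (-1.17). HIVEP3, a zinc finger protein that binds kappaB-like sites, had 14.5, 8.72 and 6.56 CPM with the combination, against 40.2, 21.6 and 38.6 CPM with DMSO. HIVEP3 fell by 1.81 ± 0.23 (adjusted p = 3.15e-04). CSF1, the macrophage growth factor, had 5.00, 7.22 and 6.86 CPM with the combination, against 18.4, 11.3 and 18.7 CPM with DMSO. CSF1 fell by 1.32 ± 0.18 (adjusted p = 4.12e-04), and LILRA4, an immunoglobulin-like receptor, had 28.8, 23.4 and 18.6 CPM with the combination, against 53.6, 52.6 and 51.6 CPM with DMSO. LILRA4 fell by 1.17 ± 0.13 (adjusted p = 8.48e-05). The largest increases in CPM were those of ATP2A3, a calcium pump of the endoplasmic reticulum, at 539, 713 and 783 CPM with the combination, against 375, 543 and 565 CPM with DMSO (0.46 ± 0.08, adjusted p = 0.0034), SH3TC1 (0.35), GNAI2, CTDSP2 (0.50), OGA (0.41), which removes O-GlcNAc, and NUSAP1. Of these 6, OGA alone had groups that did not overlap. SCAND1, HTR2C, SH3TC1, CTDSP2 and OGA lost their calls on omitting at least 1 of the 6 libraries (adjusted p up to 0.246). EVI5L, ABCA5, ENSG00000243679 and ATP2A3 lost theirs on omitting a time point but not on omitting 1 library (adjusted p up to 0.0957). SH3TC1 lost the call with the length and GC trends removed (adjusted p = 0.129).

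Set beside the single agents, the decreases fell into different patterns; the 3 contrasts with DMSO share the DMSO libraries, and those of the combination share its libraries too, so their values stand side by side and no overlap of lists is given. In the early response list the median log2 fold change over DMSO was -1.10 for the combination, -0.92 for ibrutinib and -0.06 for SPX5551, and 14, 9 and 0 of 22 fell (at an unadjusted p under 0.05, 17, 17 and 1 changed). Over all genes ibrutinib changed 15 (0.104%; 1585 at an unadjusted p under 0.05) and SPX5551 0 in edgeR (1197 at that unadjusted p), with the libraries that stand apart among them. The combination was lower than SPX5551 alone in 14 and lower than ibrutinib alone in 2 of the 22, where 7.24% and 5.49% of all genes passed in either direction. CD69 had 5.60, 7.97 and 8.79 CPM with ibrutinib, and the combination differed from ibrutinib by -0.13 ± 0.18 (adjusted p = 0.703); DUSP2 had 26.7, 21.5 and 18.6 CPM, with a difference of -0.26 ± 0.14 (adjusted p = 0.271). For neither gene did the test separate the combination from ibrutinib, which does not show that they are equal. The 2 that were lower than with ibrutinib were MYC (-0.65 ± 0.15, adjusted p = 0.0234) and IRF4 (-0.39 ± 0.10, adjusted p = 0.0318); MYC had 114, 204 and 185 CPM with ibrutinib and 169, 199 and 208 CPM with SPX5551. Ribosome biogenesis differed: its median was -0.52 for the combination, -0.12 for ibrutinib and -0.09 for SPX5551, 0 of 30 fell with either single agent in edgeR (7 and 8 at an unadjusted p under 0.05), and the combination was lower than ibrutinib in 16 and lower than SPX5551 in 18. NOLC1 had 740.2, 617 and 568 CPM with ibrutinib and 660.3, 489 and 518 CPM with SPX5551, and the combination was lower than each (-0.74 ± 0.09, adjusted p = 0.00163, and -0.53 ± 0.09, adjusted p = 0.00386). ELOVL6 had 14.8, 18.9 and 19.3 CPM and 16.6, 15.7 and 14.3 CPM, and the combination fell by 1.01 and 0.84 on the log2 scale against ibrutinib and SPX5551 (adjusted p = 0.00329 and 0.00592). GPR183 fell by 1.06 and 0.90 against them, and ULK1 rose by 0.63 and 0.79 (adjusted p = 0.00689 and 0.00112). Over the genes that rose with the combination the median log2 fold change was 0.52, 0.16 with ibrutinib and 0.11 with SPX5551, and over those that fell -0.48, -0.13 and -0.11, values that the choice of genes on the combination favours. The contrast with ibrutinib gave 791 genes and that with SPX5551 1043; with no time term 0 genes (1339 at an unadjusted p under 0.05) and 5 passed. The count against ibrutinib was 2 on omitting the 4 h time point, 6 on omitting the 8 h time point, 76 on omitting the 8 h ibrutinib library, 84 on omitting the 4 h ibrutinib library, 107 on omitting the 8 h combination library, 212 on omitting the 4 h combination library, 386 on omitting the 12 h ibrutinib library and 1643 on omitting the 12 h time point. That against SPX5551 was 129 on omitting the 4 h time point, 343 on omitting the 8 h SPX5551 library, 395 on omitting the 12 h combination library, 443 on omitting the 8 h time point, 514 on omitting the 4 h combination library, 540 on omitting the 12 h SPX5551 library and 568 on omitting the 12 h time point. The ribosome biogenesis count against ibrutinib was 0 on omitting the 4 or 8 h time point, 5 on omitting the 4 h ibrutinib library, 6 on omitting the 8 h ibrutinib library and 7 on omitting the 8 h combination library, and that against SPX5551 5 on omitting the 4 h time point, 8 on omitting the 12 h time point, 10 on omitting the 12 h combination library and 11 on omitting the 8 h time point. Against ibrutinib, the call of MYC was lost on omitting the 4 h combination library, any 1 ibrutinib library or the 4 or 8 h time point (adjusted p up to 0.199), and that of IRF4 on omitting any 1 combination library, the 4 or 8 h ibrutinib library or the 4 or 8 h time point (adjusted p up to 0.274) and with library size only (0.053). Without the 2 libraries that stand apart IRF4 lost the call too (adjusted p = 0.0585), and 588 genes passed against ibrutinib. ULK1 lost it on omitting the 4 h ibrutinib library or the 4 or 8 h time point (adjusted p up to 0.138), and MIR17HG, NOLC1, ELOVL6 and GPR183 on omitting the 4 or 8 h time point (adjusted p 0.057 to 0.179). Against SPX5551, NOLC1 lost it on omitting the 4 h time point (adjusted p up to 0.0515) and ELOVL6 on omitting the 4 or 8 h time point (adjusted p up to 0.0708).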

How the data were processed

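The libraries were poly(A)-selected, directional RNA libraries of REC1 cells, per the labels' protocols, although the molecule field of the labels reads genomic DNA. The authors deposited counts per gene (Ensembl IDs) and, beside them, log2 values of normalized expression. Alignment used BWA and hg38, per the submitters' processing notes. The counting tool, annotation and strand setting were not given in the sources used here. Columns were assigned by treatment and time in their headers, and 0 per-sample columns were left unmapped. Of 60483 IDs, 56753 (93.8%) were found in GENCODE release 29, which gave gene type, position, transcript length and GC content. The same number had a gene symbol, taken from a separate list of gene names where it held one and otherwise from that release.

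Deposited counts were tested with edgeR 4.0.16 (R 4.3.3) by the quasi-likelihood F-test over all 12 libraries, with time and treatment as terms and TMM scaling. Genes were kept by filterByExpr (minimum count 10), which left 14412 genes and 99.9% of counts; the common biological coefficient of variation was 0.101, with 6 residual degrees of freedom. CPM values are counts per library scaled by TMM to a common total, ± is the standard error of a log2 fold change, and p-values were adjusted over all genes by Benjamini-Hochberg. limma 3.58.1, DESeq2 1.42.0 and a limma fit of the deposited log2 values were alternatives, and the edgeR step was tested on simulated data. Time numbers pair the libraries by design: deviations of the combination and DMSO libraries of the same time from their group means correlated across genes with r = 0.559, 0.481 and 0.65 at 4, 8 and 12 h. Genes named were the 12 with the largest fold in each direction among those past the threshold with mean log2 CPM of at least 2 and no overlap, the 6 with the largest CPM difference, up to 4 of each list by p, and 4 in each direction for the time contrast; others were picked after their values were seen. The comparison and the gene lists were chosen with earlier results of these data known. Promoter and microRNA sequences are from RefSeq (GRCh38.p14), and 10275 tested genes had a promoter there.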

Additional observations from a re-analysis of the deposited data

How the results depend on the processing

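None of the named genes that passed changed sign under the alternatives in scaling, filter, model or libraries left out. With columns assigned by the free-text descriptions, which swap the treatments, 1043 genes passed and 6 of the 1379 genes kept their sign. Against DMSO 1379 genes passed; the total was 2549 with both libraries that stand apart (ibrutinib at 8 h, SPX5551 at 12 h) left out, 2598 with only the 6 combination and DMSO libraries and 2216 with length and GC trends removed, and it was 27 without the replicate block of time; leaving out 1 library or time gave 278 to 853. RLE size factors, library size only, no filter, DESeq2, limma-voom and the limma fit of deposited log2 values gave 1351 to 1633. Against ibrutinib (791) the count was 1404 without the filter, 1211 with DESeq2 and 0 without the replicate block (1339 at an unadjusted p under 0.05); leaving out 1 library or time gave 2 to 1643. Against SPX5551 (1043) it was 1788 without the filter and 5 without the replicate block; leaving out 1 library or time gave 129 to 1173. The test of a change between 4 h and later times called 0 genes in edgeR, 25 without the filter and 3 with DESeq2. It called 370 with both libraries that stand apart left out, a fit with 1 residual degree of freedom. Leaving out 1 library gave 0 to 5. Leaving out libraries or times in the contrasts with the single agents and, for libraries, in the time contrast was chosen after seeing the data. The causes were not tested, beyond the fewer libraries in fits that leave some out. With 1 library per treatment and time, biological spread within a time was not measured, and at low CPM a call rests on few counts.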

Other observations

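The genes of the following paragraphs lie outside the lists and the naming rule and were picked after their values were seen. Fc receptor-like genes, which encode regulators of B-cell receptor signals and lie together on chromosome 1, were lower in 4 of the 5 tested members FCRL1 to FCRL5. FCRL4, a marker of memory B cells in tissue, had 32.6, 40.6 and 53.3 CPM with the combination, against 65.9, 94.0 and 94.5 CPM with DMSO. FCRL4 fell by 1.01 ± 0.11 (adjusted p = 9.81e-05). FCRL3 had 142, 118 and 224 CPM with the combination, against 262, 224 and 359 CPM with DMSO. FCRL3 fell by 0.82 ± 0.12 (adjusted p = 7.12e-04). FCRL5 (-0.66) and FCRL2 (-0.39) fell as well, and FCRL1 was at 52.6, 68.6 and 134 CPM with the combination, against 65.9, 69.8 and 116 CPM with DMSO and did not pass (-0.03, adjusted p = 0.93). On the same chromosome CD1C, which presents lipids to T cells, had 37.2, 27.5 and 27.1 CPM with the combination, against 69.2, 58.7 and 51.7 CPM with DMSO, with no overlap. CD1C fell by 0.97 ± 0.10 (adjusted p = 6.06e-05), an adjusted p matched among all genes by few others; CD1A had 0.219, 0.204 and 0.0750 CPM with the combination, against 0.374, 0.715 and 0.553 CPM with DMSO. CD1A fell by 1.73 ± 0.49 (adjusted p = 0.0371). LAMP5, a lysosome-associated protein, had 24.1, 23.8 and 16.6 CPM with the combination, against 50.3, 43.1 and 33.9 CPM with DMSO. LAMP5 fell by 0.98 ± 0.10 (adjusted p = 6.06e-05). MYO1E, a membrane-binding myosin, had 29.3, 17.4 and 17.1 CPM with the combination, against 53.8, 35.4 and 39.9 CPM with DMSO. MYO1E fell by 1.04 ± 0.10 (adjusted p = 6.06e-05). TNFSF15, a cytokine of the TNF family, had 1.67, 1.02 and 1.20 CPM with the combination, against 9.35, 4.03 and 3.32 CPM with DMSO. TNFSF15 fell by 2.01 ± 0.21 (adjusted p = 6.59e-05). The call of FCRL2 was lost on omitting the 4 or 8 h combination library, any 1 DMSO library or the 4 or 8 h time point (adjusted p up to 0.277). The call of CD1A was lost on omitting any 1 combination library, the 8 or 12 h DMSO library or any 1 time point (adjusted p up to 0.248). FCRL5 lost the call on omitting a time point but not on omitting 1 library (adjusted p up to 0.0722).

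Of 10 immunoglobulin constant region genes tested 5 fell and none rose. IGHD, the constant region of IgD, had 4.60, 4.39 and 3.34 CPM with the combination, against 7.05, 6.64 and 5.28 CPM with DMSO. IGHD fell by 0.62 ± 0.15 (adjusted p = 0.0167). IGLC3 (-0.94), IGHG3 (-0.83), IGHG1 (-0.70) and IGLC2 (-0.63) were the others, and the gene copies are near-identical within the lambda and the gamma group, so the division of their reads is uncertain. IGHM, the constant region of IgM, had 1530, 1761 and 1438 CPM with the combination, against 1627, 1974 and 1698 CPM with DMSO (-0.16, adjusted p = 0.299), and IGKC 616, 648 and 433 CPM with the combination, against 789, 845 and 494 CPM with DMSO (-0.32, adjusted p = 0.131). The call of IGHD was lost on omitting the 4 h combination library, the 8 or 12 h DMSO library or any 1 time point (adjusted p up to 0.119). IGHG3 also lost the call on omitting at least 1 of the 6 libraries (adjusted p up to 0.0875). IGLC3, IGHG1 and IGLC2 lost theirs on omitting a time point but not on omitting 1 library (adjusted p up to 0.0826).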
